A study of Homo sapiens with 12 samples.

Results

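The genes described here are the 4 ERBB receptors (EGFR, ERBB2, ERBB3 and ERBB4) and 4 inhibitors that act on them (ERRFI1, LRIG1, LRIG3 and CBL). They were taken as the rows of the gene count table that carry these 8 symbols, out of 60591 genes. An expression filter kept 19108 genes for testing, and 7 of the 8 members passed it. ERBB4 did not.

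RNA-seq was performed on PC9 and H1650, established non-small cell lung cancer lines whose labels give a wild-type genotype, while the study's text states that both carry the same activating deletion in EGFR. Cells were collected at T0, the time of drugging, from wells labelled 0.1% DMSO, or after 36 h with either 10 µM erlotinib or 0.1 µM osimertinib. Erlotinib is a reversible EGFR kinase inhibitor, and osimertinib is a covalent one of a later generation. With 2 replicates in each of 6 groups, polyA RNA of 12 libraries was counted. No vehicle library from 36 h was used here, so drug exposure and time in culture cannot be told apart in any difference from T0. The drugs were given at different doses, each line stands for 1 tumor, and gene counts do not separate mutant from other EGFR transcripts. In bulk samples such as these, fewer cells of a kind and less RNA per cell cannot be told apart.

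ERBB receptors are receptor tyrosine kinases that work as dimers. EGFR binds EGF-type ligands, ERBB2 has no known ligand and serves as the preferred partner of the others, and ERBB3 has a weak kinase domain but carries many docking sites for PI3K. ERRFI1 (also called MIG6) binds the kinase domain and is a classical feedback gene, LRIG1 and LRIG3 are transmembrane proteins of 1 family that bind the receptors, and CBL is the ubiquitin ligase that marks active EGFR for lysosomal sorting.

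Library totals ran from 17961765 to 26346187 counts with a median of 21581420.5, and mitochondrial genes took 4.36% to 7.20%. In every group all 6 epithelial markers exceeded 1 CPM, and their summed level lay between 6162 and 13298 CPM. Summed fibroblast (5 genes), endothelial (3) and immune (5) markers reached at most 45.8, 5.55 and 18.7 CPM, each highest in osimertinib-treated PC9 cells, where 1 fibroblast and 1 immune marker had no reads. In PC9 cells the immune sum was 3.88 to 5.43 CPM at T0, 6.71 to 7.26 CPM with erlotinib and 17.4 to 18.7 CPM with osimertinib, and its part in the results for that group was not tested. Levels below are normalized CPM (read counts scaled to library size), and a gene is called where edgeR's quasi-likelihood test over all 19108 genes gives a Benjamini-Hochberg adjusted p below 0.05. Log2 changes come with their SE. Whether groups of 2 libraries overlap is given as a description, and how often they do so over all genes was not counted.

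Inhibition of EGFR was accompanied by less EGFR mRNA and more ERBB2 and ERBB3 mRNA in PC9 cells. In H1650 cells ERBB3 rose with both drugs, ERBB2 rose by smaller amounts, and EGFR fell with erlotinib alone among the tests run. The inhibitors did not move as 1 group. CBL fell in all 4 comparisons of a drug with T0, LRIG3 fell in PC9, and ERRFI1 fell in PC9 but rose in H1650.

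**Figure D1:**
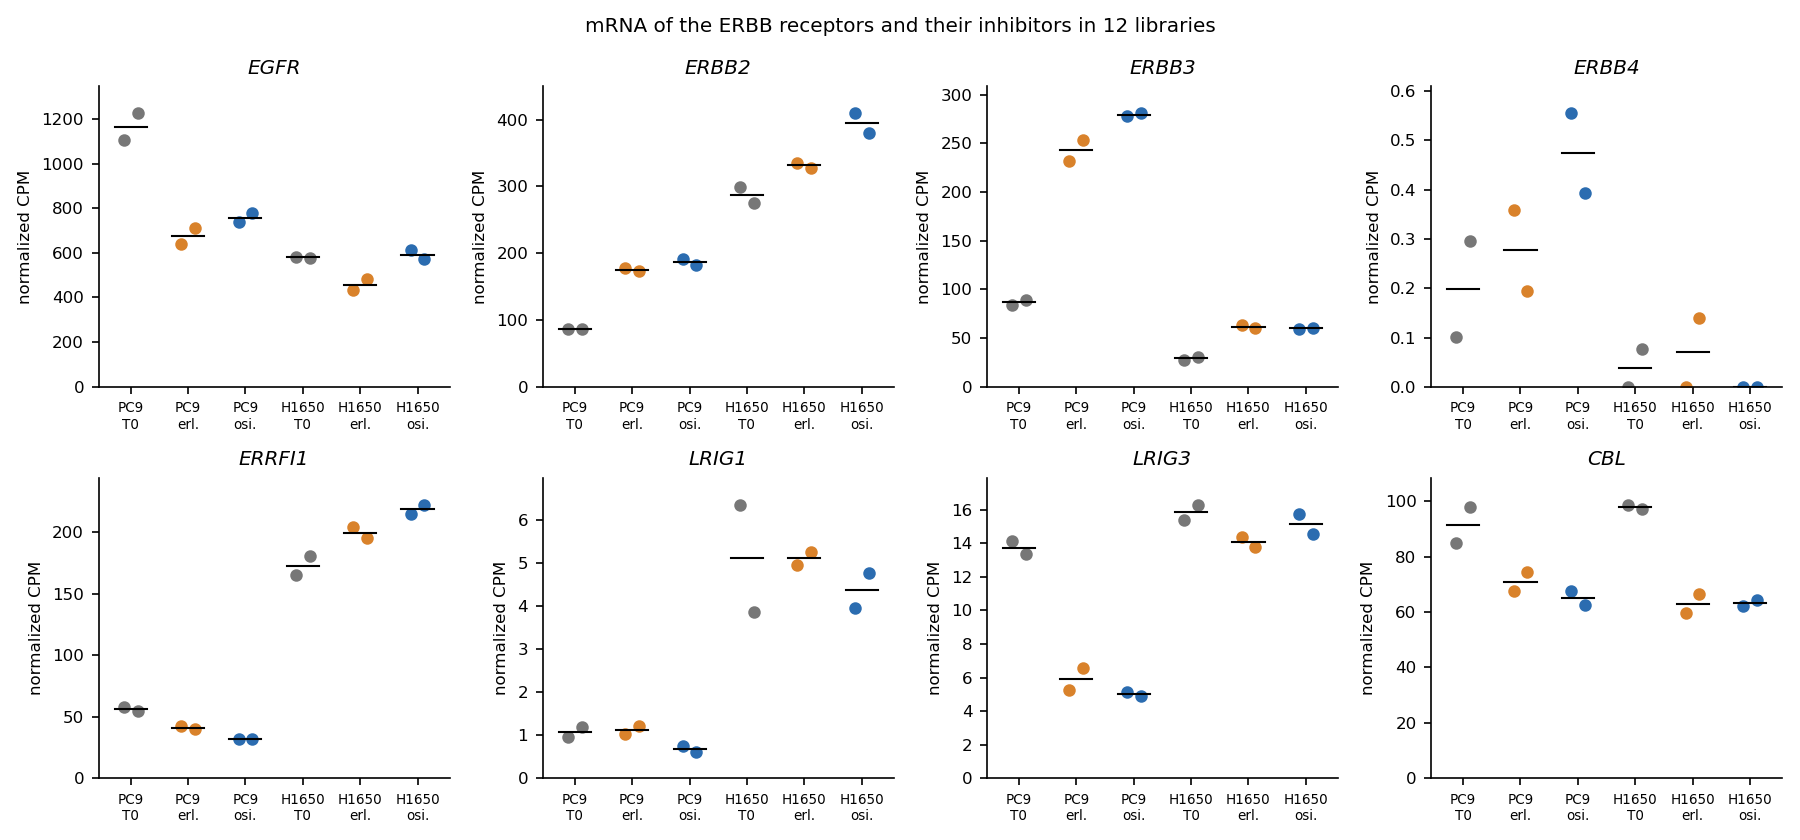
Level of each member in 12 libraries, in normalized CPM on axes that start at 0. Points are libraries (grey T0, orange erlotinib, blue osimertinib) and bars are means of 2. ERBB3 libraries treated with a drug lie above the T0 libraries of their line in both lines, and ERRFI1 lies between 31.8 and 58.2 CPM in PC9 but between 165 and 222 CPM in H1650.

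EGFR (ENSG00000146648) lies on chromosome 7 from 55019021 to 55211628 on the plus strand (GRCh38, GENCODE 29, as for all positions of genes below). In PC9 cells it was at 1104 and 1225 CPM at T0, at 638 and 710.4 CPM with erlotinib and at 739 and 777 CPM with osimertinib. Both T0 libraries stood above all 4 treated ones. EGFR fell by 0.79 (SE 0.0747) on the log2 scale with erlotinib (adjusted p = 3.69e-10) and by 0.62 (SE 0.0746) with osimertinib (adjusted p = 3.4e-08), leaving 0.579 and 0.651 of the T0 level. In H1650 cells the T0 libraries held 580.3 and 578 CPM, the erlotinib libraries 435 and 481 CPM, and the osimertinib libraries 611 and 571 CPM. Erlotinib libraries were thus the low ones, whereas the osimertinib pair enclosed the T0 pair. The fall with erlotinib was 0.34 on the log2 scale (SE 0.0748, adjusted p = 0.000621), and the change with osimertinib was 0.03 with a 95% interval of -0.12 to 0.18 (adjusted p = 0.816). The order of groups ran from PC9 T0 at the top to erlotinib-treated H1650 at the bottom, with an overlap of libraries for osimertinib-treated and T0 H1650 cells alone.

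The 250 bases before the upstream of 2 EGFR starts in the RefSeq promoter table (GRCh38.p14, chr7:55018767-55019016, plus strand) are shown because this is the receptor with the highest level and the window holds no match to any of the 4 motifs searched. These were TGTTTAC (forkhead), TGANTCA (AP-1), CACGTG (E-box) and CCGGAAG (ETS), each on both strands, which occur in 2.98%, 6.57%, 6.34% and 8.52% of 35116 windows of the same length. Its GC content is 73.6%, against a median of 58% over all windows. The absence of a match says only that these letters are not in this window. The window of the other start (chr7:55109589-55109838, GC content 38.8%), which lies inside the gene and is not printed, holds AP-1 matches 232 and 136 bases before its start.
EGFR: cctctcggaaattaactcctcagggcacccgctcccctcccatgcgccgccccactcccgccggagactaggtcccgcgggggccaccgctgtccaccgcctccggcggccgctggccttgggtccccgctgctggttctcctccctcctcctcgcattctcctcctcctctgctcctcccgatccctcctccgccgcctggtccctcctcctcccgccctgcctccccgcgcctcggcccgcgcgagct

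ERBB2 (ENSG00000141736, also known as HER2) lies on chromosome 17 from 39687914 to 39730426 on the plus strand. PC9 cells held 87.1 and 86.5 CPM at T0, 178 and 173 CPM with erlotinib, and 191 and 183 CPM with osimertinib. The 3 groups did not overlap, and the T0 libraries were lowest, but the difference between the drugs did not pass (0.095, adjusted p = 0.422). ERBB2 rose by 1.01 (SE 0.0726, 2.02-fold, adjusted p = 1.11e-12) with erlotinib and by 1.11 (SE 0.0729, 2.16-fold, adjusted p = 1.56e-13) with osimertinib. H1650 cells held more ERBB2 at the start, with 298 and 274 CPM at T0, 336 and 328 CPM with erlotinib and 409 and 379.6 CPM with osimertinib. These groups did not overlap either, although they lay closer together. The increase was 0.46 (SE 0.0694, adjusted p = 5.23e-06) with osimertinib and 0.21 (SE 0.0694, adjusted p = 0.0167) with erlotinib. The latter call was lost without T0 replicate 2 (0.15, adjusted p = 0.224), erlotinib replicate 1 (0.20, adjusted p = 0.0899) or erlotinib replicate 2 (0.22, adjusted p = 0.0514) of H1650. All 6 H1650 libraries exceeded all 6 PC9 libraries.

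Of the ERBB2 window in the RefSeq table, which ends at base 39688093, the last 30 bases are shown because they hold both ETS matches (in capitals), which lie 26 and 14 bases before the start and face each other on opposite strands (GRCh38.p14, chr17:39688064-39688093, plus strand). An AP-1 match stands 222 bases before the start. GENCODE places these 30 bases in the 5′ UTR of an ERBB2 transcript, and on the opposite strand in that of a PGAP3 transcript whose exon 1 spans 39687834 to 39688107, so the 2 genes start head to head.
ERBB2: tccaCTTCCGGagtaaCCGGAAGttcctgt

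ERBB3 (ENSG00000065361), the receptor with the PI3K docking sites, lies on chromosome 12 from 56076799 to 56103505 on the plus strand and showed the largest rise of the 7 tested members in all 4 comparisons with T0. In PC9 cells the libraries held 84.3 and 89.5 CPM at T0, 232 and 253 CPM with erlotinib, and 278 and 281 CPM with osimertinib. Treated libraries all lay above T0. The drug groups did not overlap each other, but their difference did not pass (0.20, adjusted p = 0.0585). The change was 1.48 (SE 0.0764, 2.79-fold, adjusted p = 8.33e-16) with erlotinib and 1.68 (SE 0.0768, 3.21-fold, adjusted p = 4.53e-17) with osimertinib. H1650 cells had lower levels, with 27.4 and 30.9 CPM at T0, 63.2 and 60.5 CPM with erlotinib and 59.3 and 60.6 CPM with osimertinib. Here the drug groups overlapped, and both stood apart from T0. ERBB3 rose by 1.08 (SE 0.0832, adjusted p = 4.15e-11) and 1.04 (SE 0.0830, adjusted p = 1.01e-10), which is 2.12-fold and 2.05-fold. Even so, treated H1650 libraries stayed below the untreated PC9 libraries. By size, the ERBB3 change exceeded that of 77.0% and 80.1% of all genes tested in PC9, and of 86.8% and 87.1% in H1650.

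ERBB4 (ENSG00000178568), a receptor for neuregulins, lies on chromosome 2 from 211375717 to 212538841 on the minus strand and was close to undetected. PC9 libraries held 2 and 6 reads at T0, 8 and 5 with erlotinib and 12 and 7 with osimertinib. H1650 libraries held 0 and 2, 0 and 3, and 0 and 0 reads in the same order. In all, 40 reads came from 6 of 6 PC9 libraries and 5 from 2 of 6 H1650 libraries. Where no read was counted, up to 3 reads remain possible, equal to 0.116 to 0.168 CPM depending on the library, and this covers counting error only. No test was made.

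Levels were also divided by the gene length in the deposited table, to set the receptors side by side. Shares and the order of receptors on this scale depend on those lengths. Whether the lengths match the transcripts made in these cells was not tested, so the shares are not measures of receptor abundance. EGFR made up 83.1% and 84.1% of the summed receptor mRNA per kb in the PC9 T0 libraries, and 53.9% to 55.6% in the 4 treated libraries. The ERBB3 share went from 8.71% and 8.99% to between 27.8% and 28.9%, and that of ERBB2 from 7.20% and 7.95% to between 15.9% and 18.2%. Summed over the receptors, the level per kb was 106 and 116 CPM at T0, 94.5 and 102 CPM with erlotinib, and 109 and 112 CPM with osimertinib.

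H1650 cells had a different receptor composition on this scale. EGFR held 59.1% and 60.5% at T0, ERBB2 36.9% and 34.9%, and ERBB3 3.96% and 4.59%. With a drug, EGFR held 46.7% to 51.3%, ERBB2 41.2% to 43.7% and ERBB3 7.05% to 9.61%. ERBB2 was thus the runner-up in every H1650 library, whereas ERBB3 was the runner-up in every PC9 library on this scale. At T0 that order rests on the lengths used, as PC9 T0 replicate 1 held 87.1 CPM of ERBB2 and 84.3 CPM of ERBB3 before division by length. The ratio of EGFR to ERBB3 per kb fell from 9.24 and 9.65 to between 1.88 and 1.98 in PC9, and from 13.2 or more to between 4.85 and 7.27 in H1650. These shares and ratios are descriptions that rest on the gene lengths used, and no test was run on them.

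**Figure D2:**
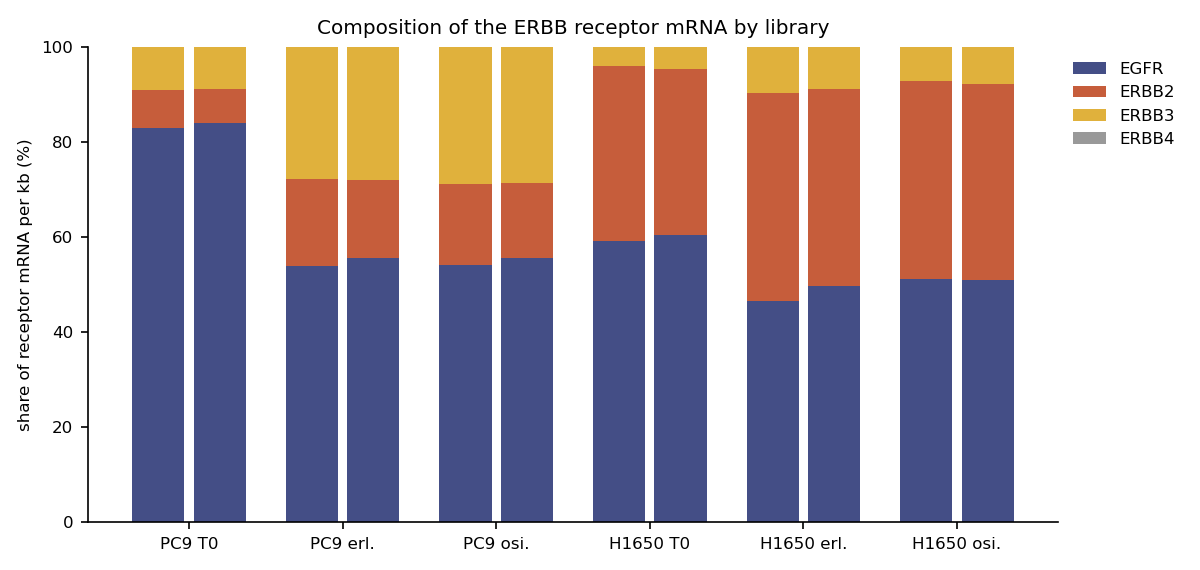
Share of each ERBB receptor in the summed receptor mRNA per kb (%), with 1 bar per library and replicates side by side. EGFR takes 83.1% to 84.1% in PC9 T0 libraries and 53.9% to 55.6% after either drug, while ERBB2 is the larger of the remaining parts in all 6 H1650 bars.

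Among the inhibitors, ERRFI1 (ENSG00000116285, chromosome 1 from 8004404 to 8026308, minus strand) moved in opposite directions in the lines. In PC9 cells it stood at 58.2 and 54.6 CPM at T0, 42.3 and 40.0 CPM with erlotinib and 32.0 and 31.8 CPM with osimertinib, with no overlap between groups. It fell by 0.45 (SE 0.0796, adjusted p = 1.52e-05) and by 0.82 (SE 0.0824, adjusted p = 1.08e-09) on the log2 scale. H1650 libraries held 165 and 180.2 CPM at T0, 204 and 195 CPM with erlotinib and 215 and 222 CPM with osimertinib. The T0 pair was the lowest of the H1650 groups, and every H1650 library exceeded every PC9 library. ERRFI1 rose by 0.34 (SE 0.0723, adjusted p = 0.00042) with osimertinib and by 0.21 (SE 0.0724, adjusted p = 0.0245) with erlotinib. The rise with erlotinib did not pass without a filter on low counts (0.19, adjusted p = 0.0847), nor without T0 replicate 1 (0.14, adjusted p = 0.283), erlotinib replicate 1 (0.18, adjusted p = 0.154) or erlotinib replicate 2 (0.23, adjusted p = 0.0503) of H1650.

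LRIG1 (ENSG00000144749, chromosome 3 from 66378797 to 66501263, minus strand) was a low-level gene. PC9 libraries held 19 and 24 reads at T0, 23 and 31 with erlotinib and 16 and 11 with osimertinib, or 0.617 to 1.21 CPM. H1650 libraries held 136 and 100 reads at T0, 96 and 113 with erlotinib and 83 and 107 with osimertinib, or 3.86 to 6.34 CPM. Every H1650 library exceeded every PC9 library, and the H1650 groups overlapped. Its changes ranged from -0.65 to 0.07 over the 4 comparisons and none passed the test. The interval for osimertinib in PC9 ran from -1.49 to 0.20 (adjusted p = 0.178), so a change of either size was not resolved at this depth.

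LRIG3 (ENSG00000139263, chromosome 12 from 58872149 to 58920522, minus strand) had the largest fall of the tested members in PC9 cells. It was at 14.1 and 13.3 CPM at T0, 5.24 and 6.56 CPM with erlotinib and 5.13 and 4.88 CPM with osimertinib. All 4 treated libraries were below T0. The drug groups did not overlap, but their difference did not pass (-0.24, adjusted p = 0.37). LRIG3 fell by 1.21 (SE 0.144, adjusted p = 2.98e-08) and by 1.45 (SE 0.152, adjusted p = 2.46e-09), leaving 0.432 and 0.366 of the T0 level. H1650 libraries stayed between 13.8 and 16.3 CPM, with changes of -0.17 (95% interval -0.44 to 0.10) and -0.06 (-0.33 to 0.20) that did not pass. In the promoter window of the upstream LRIG3 start an E-box match (in capitals) begins 132 bases before the start, and 6.34% of all windows hold such a match. The 30 bases around it are given because LRIG3 is the inhibitor with the largest fall (GRCh38.p14, chr12:58920619-58920648, minus strand). The window of the other LRIG3 start (chr12:58919506-58919755), which is not printed, holds no match to any of the 4 motifs.
LRIG3: cggtgttattgtCACGTGgccacggggacg

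CBL (ENSG00000110395, chromosome 11 from 119206276 to 119313926, plus strand) was the inhibitor that fell in both lines. PC9 cells held 84.9 and 97.9 CPM at T0, 67.4 and 74.5 CPM with erlotinib and 67.7 and 62.5 CPM with osimertinib. H1650 cells held 98.6 and 97.2 CPM at T0, 59.6 and 66.4 CPM with erlotinib and 62.0 and 64.5 CPM with osimertinib. In each line the treated groups overlapped each other and lay below T0. The falls were 0.37 (SE 0.0847, adjusted p = 0.000485) and 0.49 (SE 0.0858, adjusted p = 1.49e-05) in PC9, and 0.63 (SE 0.0852, adjusted p = 9.19e-07) and 0.63 (SE 0.0850, adjusted p = 1.02e-06) in H1650.

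**Figure D3:**
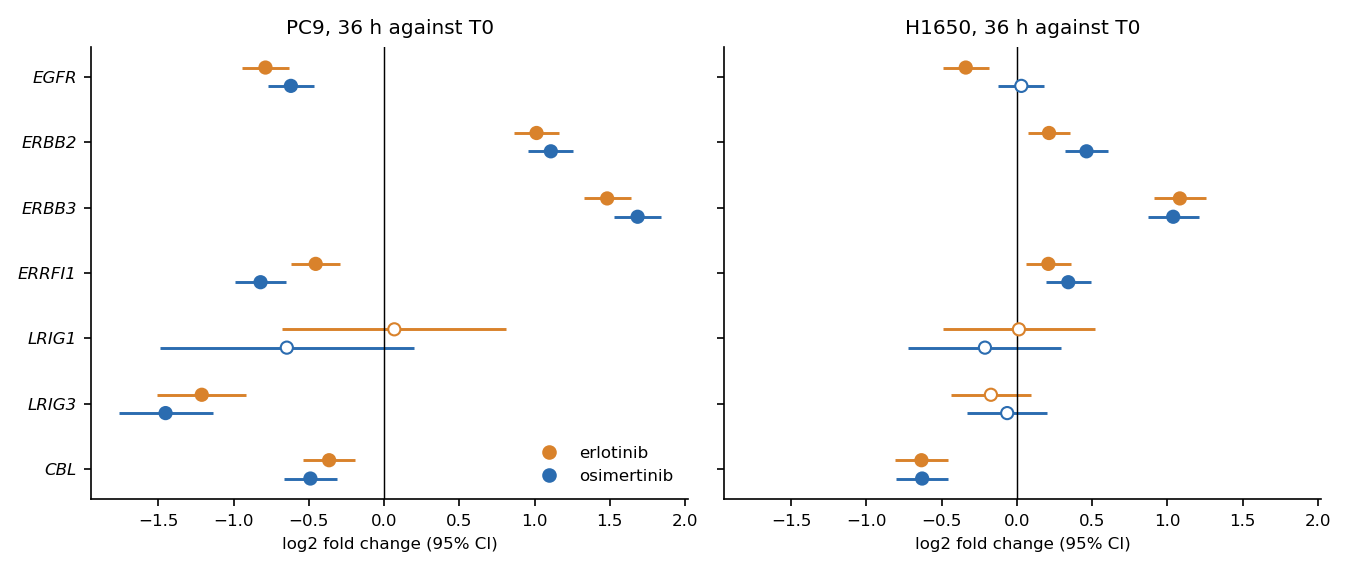
Change of the 7 tested members after 36 h of erlotinib (orange) or osimertinib (blue) against T0, as log2 fold change with 95% interval, for PC9 and H1650 on the same axis. Filled points passed the test and open points did not; ERRFI1 is left of 0 in PC9 and right of 0 in H1650, and CBL is left of 0 in both.

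These counts have to be read against how many genes changed at all. In PC9 cells 6 of the 7 tested members were called with each drug, 2 higher and 4 lower. Of all genes tested, 61.8% were called with erlotinib (32.7% higher and 29.1% lower) and 61.4% with osimertinib (32.7% higher and 28.7% lower). In H1650 cells 5 members were called with erlotinib, 3 higher and 2 lower, where 36.5% of all genes were (18.0% higher and 18.5% lower). Osimertinib gave 4 calls, 3 higher and 1 lower, where 35.7% of all genes were called (17.8% higher and 17.9% lower). Comparisons within a line share the T0 libraries. The median size of the members' changes was 0.79 and 0.82 in PC9, against 0.69 and 0.71 over all genes, and 0.21 and 0.34 in H1650, against 0.35 and 0.33.

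To ask whether a member's change from T0 differed between the lines, the PC9 change was subtracted from the H1650 change and the result was tested as an interaction term. Drug exposure and time in culture cannot be told apart in this term either. EGFR, ERBB2, ERBB3, ERRFI1 and LRIG3 passed with each drug, which is 5 of 7 members where 40.8% of all genes were called for erlotinib and 41.9% for osimertinib. The difference for ERRFI1 was 0.66 (SE 0.108, adjusted p = 1.1e-05) with erlotinib and 1.16 (SE 0.110, adjusted p = 9.07e-10) with osimertinib. LRIG3 differed by 1.04 (SE 0.195) and 1.39 (SE 0.200), as it fell in PC9 alone among the calls. ERBB2 differed by -0.80 (SE 0.100) and -0.65 (SE 0.100), the larger rise being in PC9. EGFR differed by 0.45 (SE 0.105) and 0.65 (SE 0.105). For ERBB3 the difference was -0.40 (SE 0.112, adjusted p = 0.00496) with erlotinib and -0.65 (SE 0.112, adjusted p = 2.57e-05) with osimertinib, and the former did not pass without T0 replicate 2 of H1650 (-0.30, adjusted p = 0.0721). CBL gave -0.27 with erlotinib (95% interval -0.52 to -0.02, adjusted p = 0.075) and -0.14 with osimertinib (-0.39 to 0.11), and LRIG1 gave -0.06 (-0.95 to 0.84) and 0.43 (-0.55 to 1.42). The erlotinib value of CBL was called without PC9 T0 replicate 2 (-0.37, adjusted p = 0.0313) or PC9 erlotinib replicate 1 (-0.34, adjusted p = 0.0396).

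Before treatment the lines already differed. At T0, 5 of the 7 members were called between H1650 and PC9, where 69.6% of all genes were. H1650 had 3.30 times as much ERBB2 (1.72, SE 0.0731), 3.06 times as much ERRFI1 (1.61, SE 0.0768) and 4.70 times as much LRIG1 (2.23, SE 0.302). It had 0.498 of the EGFR level (-1.01, SE 0.0750) and 0.336 of the ERBB3 level (-1.57, SE 0.0825). LRIG3 and CBL differed by 0.21 (95% interval -0.06 to 0.48) and 0.10 (-0.07 to 0.27), which did not pass.

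The drugs were also set side by side within each line, at the doses used, which differ, so no statement on potency can be made. In PC9 cells ERRFI1 was lower with osimertinib than with erlotinib (-0.37, SE 0.0829, adjusted p = 0.00216), the 1 call among 7 members where 16.6% of all genes were called. EGFR (0.17, 95% interval 0.02 to 0.32, adjusted p = 0.132) and ERBB3 (0.20, 0.05 to 0.35, adjusted p = 0.0585) did not pass. In H1650 cells EGFR was higher with osimertinib (0.37, SE 0.0748, adjusted p = 0.00136), and so was ERBB2 (0.25, SE 0.0693, adjusted p = 0.0208), 2 of 7 members where 8.75% of all genes were called. The ERBB2 call was lost without erlotinib replicate 1 (0.26, adjusted p = 0.0781), erlotinib replicate 2 (0.24, adjusted p = 0.119) or osimertinib replicate 1 (0.20, adjusted p = 0.274) of H1650. The other members' intervals reached no further than -1.53 to 0.38 on the log2 scale in either line, the widest being that of LRIG1.

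The receptors are fed by ligands, joined to adaptors and removed by ubiquitination, and 4 lists of such genes were counted. Of 11 ERBB ligands 10 were tested, NRG3 having 1 read in all. In PC9 cells 6 were lower and 1 higher with erlotinib, and 5 lower and 1 higher with osimertinib, so 7 and 6 of 10 were called, near the shares of 61.8% and 61.4% over all genes. In H1650 cells 5 and 6 were lower and 1 higher with each drug, where 36.5% and 35.7% of all genes were called. The list's median change was -0.79, -0.45, -0.28 and -0.70 in that order, against 0.07, 0.06, 0.01 and 0 over all genes. HBEGF, a ligand of EGFR and ERBB4, was at 29.6 ± 1.00 CPM (SD, n = 2) in PC9 cells at T0, 4.52 ± 0.624 CPM with erlotinib and 4.02 ± 0.0630 CPM with osimertinib. In H1650 cells it went from 20.8 ± 2.54 CPM to 9.59 ± 0.203 and 6.20 ± 1.15 CPM, and it fell in all 4 comparisons (-2.71, -2.88, -1.11 and -1.74). EPGN, another EGFR ligand, met the minimum level for named genes through H1650 alone, where it was at 122 ± 4.77 CPM at T0 and fell by 0.24 and 0.59. In PC9 cells it was at 6.39 ± 1.01 CPM at T0, 3.16 ± 0.667 CPM with erlotinib and 3.19 ± 0.391 CPM with osimertinib, and fell by 1.00 and 0.99 on the log2 scale. Further ligands were chosen after values were seen. Their mean levels over the 12 libraries, 4.57 (BTC), 2.93 (AREG) and 7.83 CPM (EGF), were below the minimum for named genes. BTC was the ligand that rose in all 4 comparisons (0.82, 0.51, 1.19 and 1.93). AREG had changes of -4.27 and -4.58 in PC9 against -0.33, which did not pass, and -0.94 in H1650. EGF fell in H1650 (-4.43 and -3.28), while its PC9 changes of -0.02 and 0.12 did not pass.

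Of 20 receptor adaptors 17 were tested, since SOS1 and SOS2 were not in the table analysed and PIK3R2 was below the filter. In PC9 cells 9 were higher and 6 lower with either drug, where 61.8% and 61.4% of all genes were called. In H1650 cells 6 were higher and 2 lower with erlotinib, and 8 higher and 2 lower with osimertinib, beside shares of 36.5% and 35.7%. The list's median change was 0.32, 0.38, 0.10 and 0.12. GRB7, an SH2 adaptor that binds ERBB2 and ERBB3, went from 8.44 ± 1.96 CPM to 27.9 ± 0.143 and 27.9 ± 2.49 CPM in PC9 (1.73 with both drugs), and from 17.4 ± 1.91 to 34.1 ± 1.92 and 40.1 ± 3.41 CPM in H1650 (0.97 and 1.21). PTPN11, the SHP2 phosphatase that passes the receptor signal to RAS, went from 346 ± 29.5 to 177 ± 14.1 and 158 ± 2.34 CPM in PC9 and fell in all 4 comparisons (-0.97, -1.13, -0.54 and -0.73).

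All 24 genes of receptor ubiquitination and endocytic sorting were tested, and they moved in both directions. In PC9 cells 8 were higher and 8 lower with erlotinib, and 8 higher and 9 lower with osimertinib, beside shares of 61.8% and 61.4% over all genes. In H1650 cells the counts were 4 and 7, and 4 and 4, beside shares of 36.5% and 35.7%. The list's median change was -0.07, -0.02, -0.04 and -0.01. CBLB, the close relative of CBL with the same ubiquitin ligase activity, rose where CBL fell. It went from 9.15 ± 0.463 CPM to 75.0 ± 1.93 and 103.8 ± 4.22 CPM in PC9 (3.03 and 3.50), and from 14.7 ± 0.570 to 24.1 ± 0.121 and 29.3 ± 0.944 CPM in H1650 (0.71 and 0.99). UBASH3B, a phosphatase that binds CBL and opposes receptor removal, went the other way in PC9, from 172 ± 14.3 to 20.4 ± 1.15 and 14.2 ± 0.693 CPM (-3.08 and -3.60). In H1650 it fell by 0.42 with erlotinib, and its change with osimertinib was -0.12. AP2M1, a subunit of the clathrin adaptor AP2, fell by 0.61 and 0.37 in H1650 and by 0.50 and 0.43 in PC9.

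All 14 genes of the list of other receptor-level inhibitors and phosphatases were tested. In PC9 cells 6 were higher and 6 lower with erlotinib, and 5 higher and 8 lower with osimertinib, where 61.8% and 61.4% of all genes were called. In H1650 cells the counts were 3 and 3, and 3 and 4, where 36.5% and 35.7% were. The list's median change was 0.20, -0.25, -0.03 and -0.03. TOB1, an antiproliferative protein first found through its binding to ERBB2, rose by 1.02 and 1.54 in PC9, to 70.3 ± 0.643 and 101.2 ± 5.09 CPM from 34.7 ± 0.187 CPM. PTPN1, a phosphatase of receptor tyrosine kinases, fell by 0.67 and 0.54 there. In H1650 cells PTPN6, the SHP1 phosphatase, rose by 0.76 and 0.88. Its mean level in PC9 went from 53.1 ± 3.65 to 96.3 ± 7.54 and 104.7 ± 3.60 CPM. SOCS2, a cytokine signaling suppressor, fell in H1650 by 0.93 and 1.80, from 6.27 ± 0.361 to 3.31 ± 0.864 and 1.79 ± 0.238 CPM. SOCS2 met the minimum level for named genes through PC9 alone, where group means lay between 14.7 and 22.9 CPM.

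**Figure D4:**
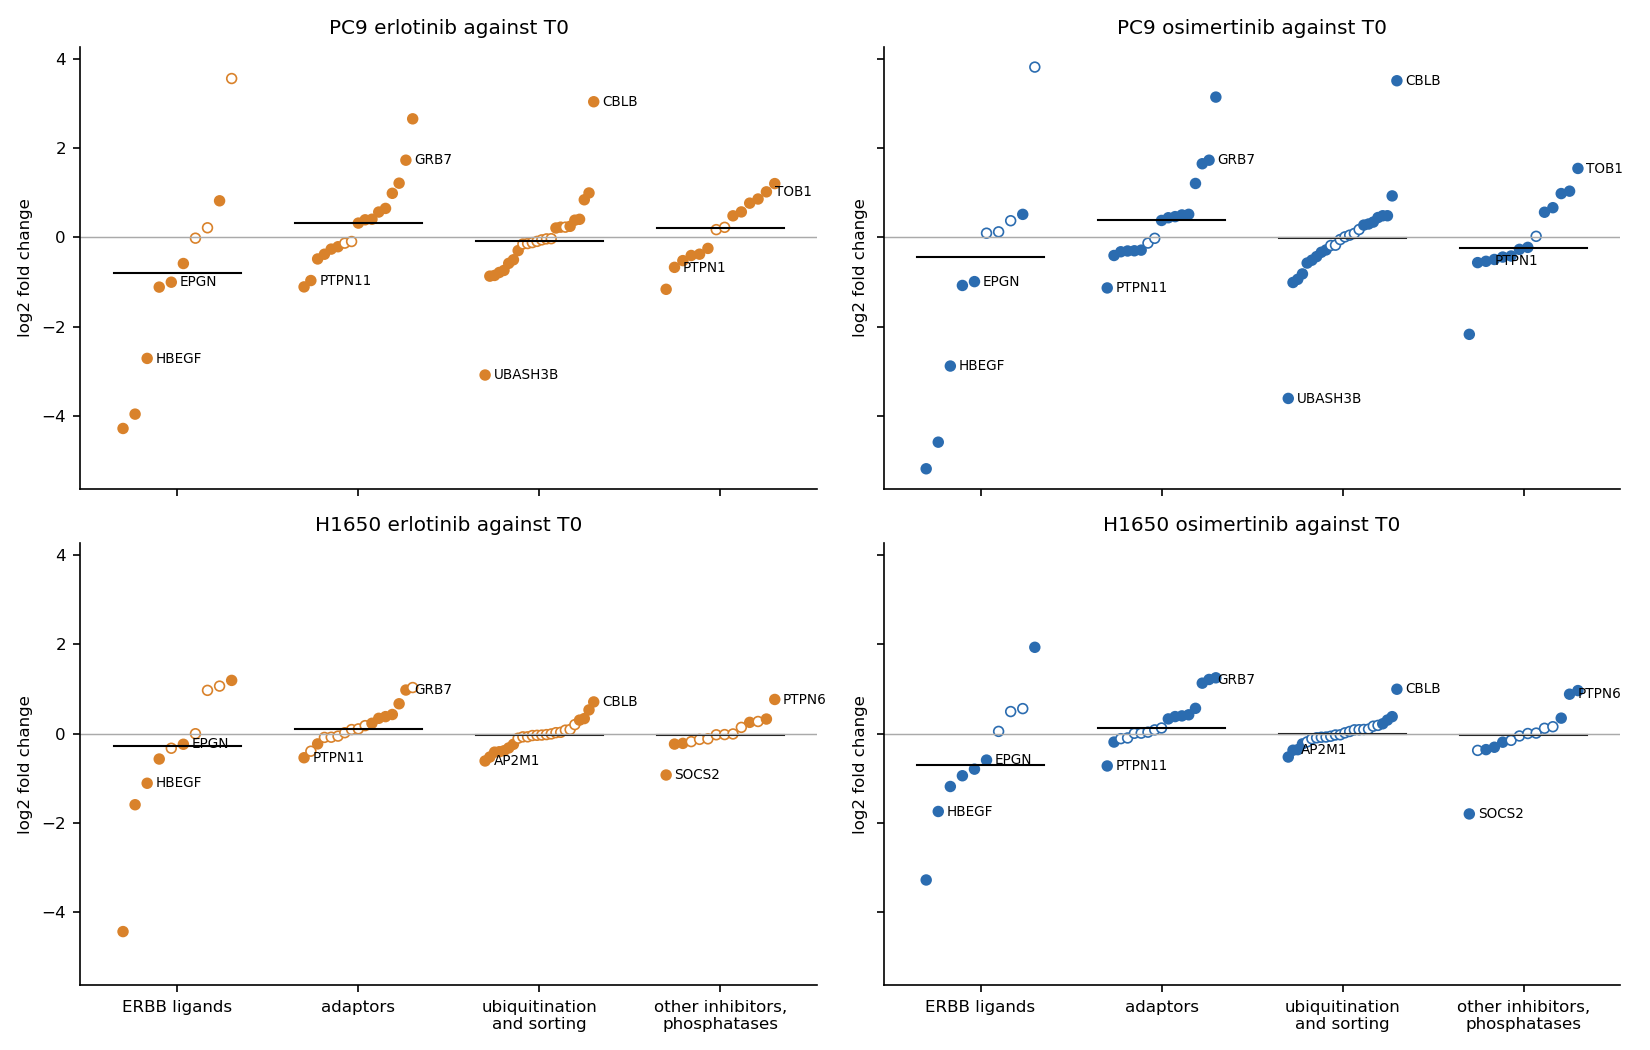
Log2 fold change against T0 of every tested gene in 4 lists around the receptors, 1 panel per line and drug. Filled points passed the test, black bars are list medians, and names mark the genes chosen by a fixed rule; CBLB is the top and UBASH3B the bottom of its list in both PC9 panels, at 3.03 and -3.08 with erlotinib.

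Some members share exon bases with a gene on the opposite strand, and the strand setting of the counting is not given in the sources used here, so reads in those bases cannot be assigned with certainty. ERBB2 shares 194 bases with PGAP3 and 571 with MIEN1, CBL shares 509 with MCAM, LRIG1 shares 907 with SLC25A26, EGFR shares 186 with EGFR-AS1 and ERRFI1 shares 155 with AL034417.4. EGFR-AS1 held at most 18 reads and AL034417.4 at most 1 read in a library. PGAP3, an enzyme of GPI-anchor remodelling, held 133 to 800 reads against 1727 to 8574 for ERBB2. MCAM, a cell adhesion molecule, stood above CBL in PC9 cells at T0, at 144 ± 7.51 against 91.4 ± 9.22 CPM, and below it after treatment, at 39.5 ± 0.355 CPM with erlotinib and 44.7 ± 4.27 CPM with osimertinib. It fell by 1.86 and 1.69 there, where CBL fell by 0.37 and 0.49. In H1650 cells the mean level of MCAM was 25.2 ± 1.54 CPM at T0, 21.2 ± 1.26 CPM with erlotinib and 16.3 ± 0.441 CPM with osimertinib. SLC25A26, a mitochondrial carrier, exceeded LRIG1 in every group, with 11.4 ± 0.746 CPM in H1650 and 18.2 ± 0.962 CPM in PC9 at T0, the reverse of the order of LRIG1. The part of these genes in the members' results was not tested.

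ERBB2 lies in a gene-dense stretch of chromosome 17 that is co-amplified in many ERBB2-positive tumors, so its neighbours were examined, in a window chosen after values were seen. Of 11 tested protein-coding genes within 250 kb, 6 were higher and 1 lower with each drug in PC9 cells, 6 and 1 with erlotinib in H1650, and 6 and 2 with osimertinib in H1650. The 7 of 11 called in PC9 are near the shares of 61.8% and 61.4% over all genes, and the H1650 counts stand beside 36.5% and 35.7%. In PC9 the 6 were STARD3 (0.28 and 0.21), PGAP3 (1.82 and 1.90), MIEN1 (0.70 and 0.63), GRB7 (1.73 with both), GSDMB (2.55 and 2.50) and ORMDL3 (1.17 and 1.49). CDK12, a transcription kinase farther out on the side of STARD3 and PGAP3, fell in all 4 comparisons (-0.38, -0.43, -0.51 and -0.54). At T0, 6 of the 11 neighbours were higher and 3 lower in H1650 than in PC9, where 69.6% of all genes were called. The higher ones were PGAP3 (1.67), GRB7 (1.04), MIEN1 (0.42), ORMDL3 (0.51), MED1 (0.46) and the low-level PPP1R1B (2.83, mean 0.535 CPM). STARD3 (-0.38), GSDMB (-0.38) and CDK12 (-0.26) were lower. Copy number was not tested. Near EGFR, LANCL2 and VOPP1, the 2 genes tested within 250 kb, were lower in all 4 comparisons with T0 and in H1650 against PC9 at T0. Of all genes, 29.1% and 28.7% were lower in PC9 and 18.5% and 17.9% in H1650. Between the lines at T0, 69.6% were called. EGFR itself did not pass with osimertinib in H1650 (0.03, adjusted p = 0.816).

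**Figure D5:**
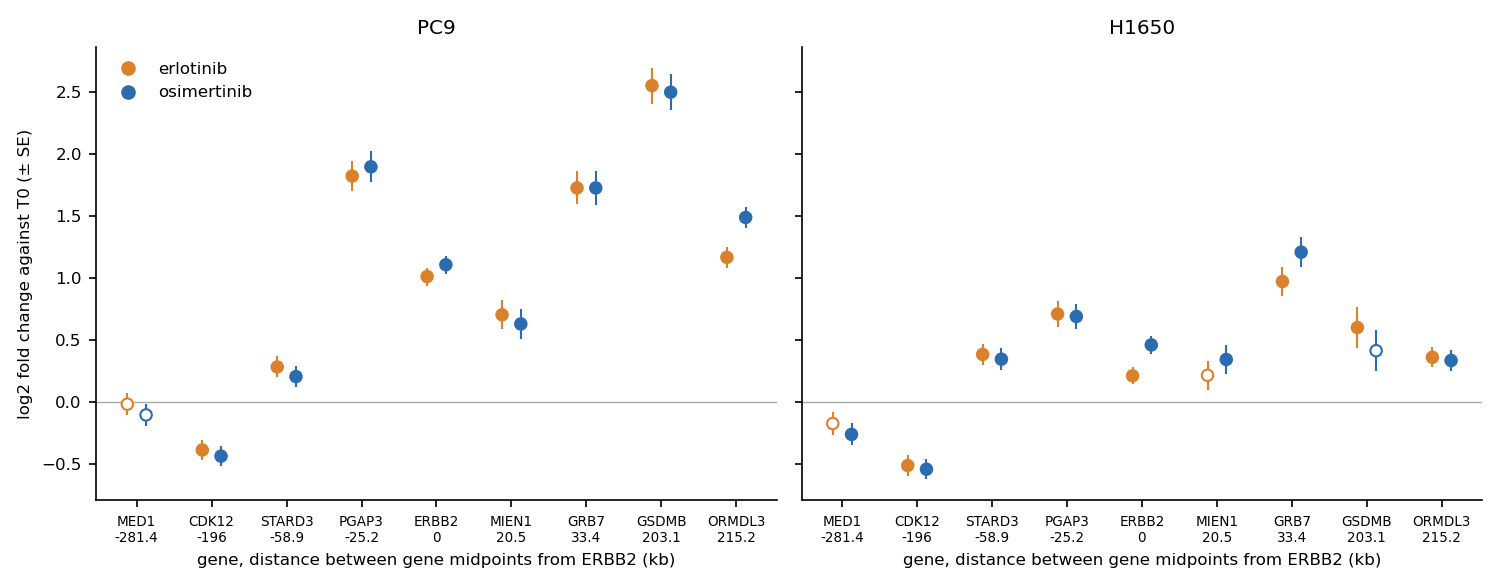
Log2 fold change against T0 (± SE) of ERBB2 and of its tested protein-coding neighbours within 250 kb with a mean of at least 10 CPM, ordered by the distance between gene midpoints in kb, which is printed under each name. Filled points passed the test; PGAP3, GRB7, GSDMB and ORMDL3 rise above 1 in PC9, while CDK12 lies below 0 in both lines.

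Finally, the genes whose levels ran most like those of each member were listed by Pearson correlation of log2 CPM over the 12 libraries, from 10293 genes, as a description in which all points share libraries and groups. ERBB3 ran most like C1RL (r = 0.998), at 23.7 ± 1.20, 93.6 ± 0.572 and 115 ± 1.72 CPM in PC9 and 4.79 ± 0.435, 13.7 ± 0.271 and 12.8 ± 2.57 CPM in H1650, and MKRN1 (r = 0.993). ERRFI1 ran most like SLC1A6 (r = 0.997) and NAB1 (r = 0.995), the latter at 25.2 ± 0.577 CPM in PC9 and 72.1 ± 2.81 CPM in H1650 at T0. SLC1A6 met the minimum level through H1650 alone, at 53.8 ± 6.90 CPM at T0, 81.7 ± 5.62 CPM with erlotinib and 121 ± 2.81 CPM with osimertinib. In PC9 cells SLC1A6 was at 4.65 ± 0.916, 1.51 ± 0.146 and 0.921 ± 0.125 CPM in the same order. LRIG3 ran with ZYG11A (r = 0.991) and SCAF4 (r = 0.990), and ERBB2 with HLA-B (r = 0.995) and P2RX4 (r = 0.993). For EGFR the leading genes were ALG1 (r = 0.981) and TIMM23 (r = 0.977), and for CBL they were SBDS (r = 0.940) and PDCL3 (r = 0.937). With 2 lines and few groups such values are common, as 573 genes exceeded 0.95 for ERRFI1, 323 for ERBB3 and none for CBL.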

How the data were processed

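The authors sequenced polyA RNA, processed the reads with DolphinNext and deposited whole-number counts per gene (featureCounts, by the name of the table), not normalized, with a gene length in base pairs beside each row. Per the labels, GRCh38 was the build and DESeq2 was used. The aligner, annotation and strand setting are not given in the sources used here. All 12 libraries were mapped to groups by their labels. The study calls its RNA-seq replicates biological in a supplementary legend.

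Counts were fitted in R 4.3.3 with edgeR 4.0.16 (expression filter by group, TMM factors 0.941 to 1.08, quasi-likelihood fit of 6 groups over 12 libraries, 6 residual degrees of freedom, 19108 genes). Tests were made on 9 contrasts, and p-values were adjusted over all genes. Tests and intervals also drew on 20.7 prior degrees of freedom, from an estimate of spread shared over genes. Errors of CPM are the SD of 2 libraries. Replicates differed by more than sampling noise (chi-square over degrees of freedom 3.78 to 6.56). The fit was also run on simulated data in which few genes changed, and only in erlotinib-treated PC9 cells. Many more genes were called in the real data, so that run does not check error control here. List genes named are the highest and lowest mean changes per line, with calls of 1 sign for both drugs, at a mean of at least 10 CPM. The 2 genes most like each member come from genes with the same minimum. The members, lists and motifs were chosen with earlier results of these data known. RefSeq promoter windows matched 6 of 8 members, not ERBB3 and CBL. Alternatives were DESeq2 1.42.0, other normalizations and filters, an adjusted p under 0.01, a fit per line, a replicate block, and leaving out each library.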

Additional observations from a re-analysis of the deposited data

Results flagged for a closer look

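The changes of 5 members from T0 to 36 h with a drug differed between the lines, by an interaction term in edgeR's quasi-likelihood test, with each drug. Without a 36 h vehicle, drug exposure and time in culture cannot be told apart in these differences. Given as the log2 change in H1650 minus that in PC9, the values with erlotinib were 0.45 for EGFR, -0.80 for ERBB2, -0.40 for ERBB3, 0.66 for ERRFI1 and 1.04 for LRIG3. With osimertinib they were 0.65 for EGFR, -0.65 for ERBB2, -0.65 for ERBB3, 1.16 for ERRFI1 and 1.39 for LRIG3. Both sets use the same T0 libraries, and 40.8% and 41.9% of all genes passed the same tests.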

How the results depend on the processing

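With 2 libraries per group and no 36 h vehicle, small changes and low genes are the limit of these data. Over the alternatives, 1139 of the members' log2 changes kept direction and side of the threshold, 11 lost their call, 9 gained one and 17 changed sign, none of the last being called. The sign changes concern LRIG1 with erlotinib in H1650 (-0.0093 with RLE, -0.0100 without a filter, -0.0176 with DESeq2, and -0.31 to 0.40 on leaving out 1 library) and CBL for osimertinib against erlotinib in H1650 (-0.00022 with a fit per line, -0.0718 to 0.0931 on leaving out 1 library). On leaving out 1 library, LRIG1 in PC9 ran from -0.0812 to 0.225 with erlotinib and EGFR in H1650 from -0.0199 to 0.0784 with osimertinib, LRIG1 in H1650 from -0.54 to 0.18 with osimertinib and from -0.38 to 0.35 for its line difference with erlotinib, and CBL from -0.0047 to 0.20 between the lines at T0. Members called with erlotinib in H1650 numbered 3 to 5 on leaving out 1 library (3 without either erlotinib replicate) and 3 at an adjusted p under 0.01. For osimertinib against erlotinib, PC9 gave 2 members with at least 10 counts in every library, 2 with DESeq2 and 3 with the replicate block, and H1650 gave 1 to 2 on leaving out 1 library and 1 at an adjusted p under 0.01. Over all genes the PC9 count went from 3163 to 2108 without osimertinib replicate 2 and 1930 at 0.01, and the H1650 count from 1672 to 2670 with the replicate block, 1093 and 1045 without erlotinib replicate 1 or 2, 782 without osimertinib replicate 1, and 912 at 0.01. Taken over all tested genes, deviations of same-numbered libraries correlated by -0.07 to 0.09 over 15 pairs of groups. Whether the replicate numbers mark a shared batch was not tested. With the block, EGFR (0.17, adjusted p = 0.0329) and ERBB3 (0.20, adjusted p = 0.00794) were called between the drugs in PC9, and CBL for its line difference with erlotinib (-0.27, adjusted p = 0.0171). CBL was also called there with upper quartile scaling (-0.35, adjusted p = 0.0186) and at least 10 counts (-0.30, adjusted p = 0.0361), and ERBB3 between the drugs in PC9 with at least 10 counts (adjusted p = 0.0383) and DESeq2 (adjusted p = 0.0355). The cause was not tested. No scaling moved the median of all genes by over 0.1.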
